A study of Mus musculus with 6 samples.

Results

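The 36 genes described here encode the sensors, transcription factors, chaperones, folding enzymes and degradation factors of the unfolded protein response (UPR), measured in mouse pancreatic islet cells. The list was taken as given, and each gene was assigned to the branch it is most often linked to, 8 to PERK, 12 to IRE1 and 16 to ATF6, although many answer to more than 1 branch. Probes were matched to the genes through their RefSeq accession, and the probe with the brightest mean signal over the 6 arrays stood for its gene. All 36 were among the 25790 genes tested, and each was well above background on all 6 arrays with no saturated spot. For 28 of them the array held 1 probe and for the other 8 several. Of the 9 further probes above background, 7 differed in the direction of the probe used, and the largest gap between a further probe's change and that of the probe used was 0.15 on the log2 scale.

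Dispersed islet cells of male C57Bl/6N mice were kept for 72 h in serum-containing medium with either no exosomes (control, n = 3) or exoNOD at 50 µg/ml (n = 3). Exosomes are small vesicles that cells release; exoNOD were collected from medium in which CD4+CD25- T lymphocytes had grown, the donors being NOD mice, which are prone to autoimmune diabetes. The 3 experiments used separate islet and exosome preparations, and total RNA of each sample went to 1 Agilent 1-colour expression array. Neither group received exosomes of another source, so an effect of exosomes as such and one of their NOD T cell origin cannot be told apart. The question put to these genes was whether exoNOD changed the transcripts of the UPR, and which branch.

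The UPR adjusts the folding capacity of the endoplasmic reticulum (ER) to the load of newly made secretory protein. PERK phosphorylates the initiation factor eIF2alpha, which lowers translation while favouring ATF4 and, downstream of it, CHOP; IRE1 splices the Xbp1 mRNA into the template of an active transcription factor; and ATF6 is cut in the Golgi to release a factor that drives chaperone genes. Beta cells make insulin in bulk and depend on these pathways, and prolonged ER stress is a known route to beta cell loss.

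The arrays were alike in overall brightness. The 75th percentile of signal lay between 812 and 890, and between 78.1% and 81.8% of spots were well above background, while the median signal was 112 to 117 on the control arrays and 121 to 140 on the exoNOD arrays. The headers give 1 scan time for the 3 control arrays and exoNOD 1 and another for exoNOD 2 and 3. Each scan was taken as 1 slide, an inference from these times, and slide has that meaning throughout. The second slide so defined held no control. The hormone genes of the islet were bright: Ins1 and Ins2, which encode insulin, had levels of 8.31 to 8.50 and 8.61 to 8.73. A level is the log2 of a probe's processed signal minus the log2 of the 75th percentile of its array, so that 0 is the signal of that percentile, and levels are compared between arrays, not between probes.

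No member of the list passed the test. In limma with Benjamini-Hochberg adjustment over all genes, 0 of 36 members passed an adjusted p of 0.05, against 0.105% of all tested genes. An unadjusted p below 0.05 occurred in 0 members, against 4294 of the 25790 tested genes. Adjusted p-values ran from 0.315 to 0.990, and changes, exoNOD minus control, from -0.40 (Chac1) to 0.18 (Ern1) on the log2 scale. The 95% intervals of limma lay within 1 log2 unit on either side of 0 for 35 members, and within 0.5 for 29. The exception to the wider limit was Derl3, whose interval reached down to -1.05. These intervals carry the scatter between arrays under 1 normalization, and not the slide or the background handling. Hyou1, with an interval of -0.43 to 0.15, was 0.41 after normexp background correction.

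With the replicate number as a block, 1 member passed in the lower direction, Chac1, and 0 in the higher, where 1.83% of all genes passed lower and 6.89% higher. Unadjusted p-values were below 0.05 for 4 of 36 members in that fit, Chac1, Derl2, Derl3 and Ppp1r15a, against 7163 of the 25790 tested genes. The values of the control and exoNOD arrays did not overlap for 2 members, Derl2 and Dnajc3, both lower under exoNOD, against 7.79% of all genes. No member had all exoNOD arrays above all control arrays, against 14.6% of all genes. The plot of changes with intervals shows the spread of the 36 genes by branch.

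**Figure D1:**
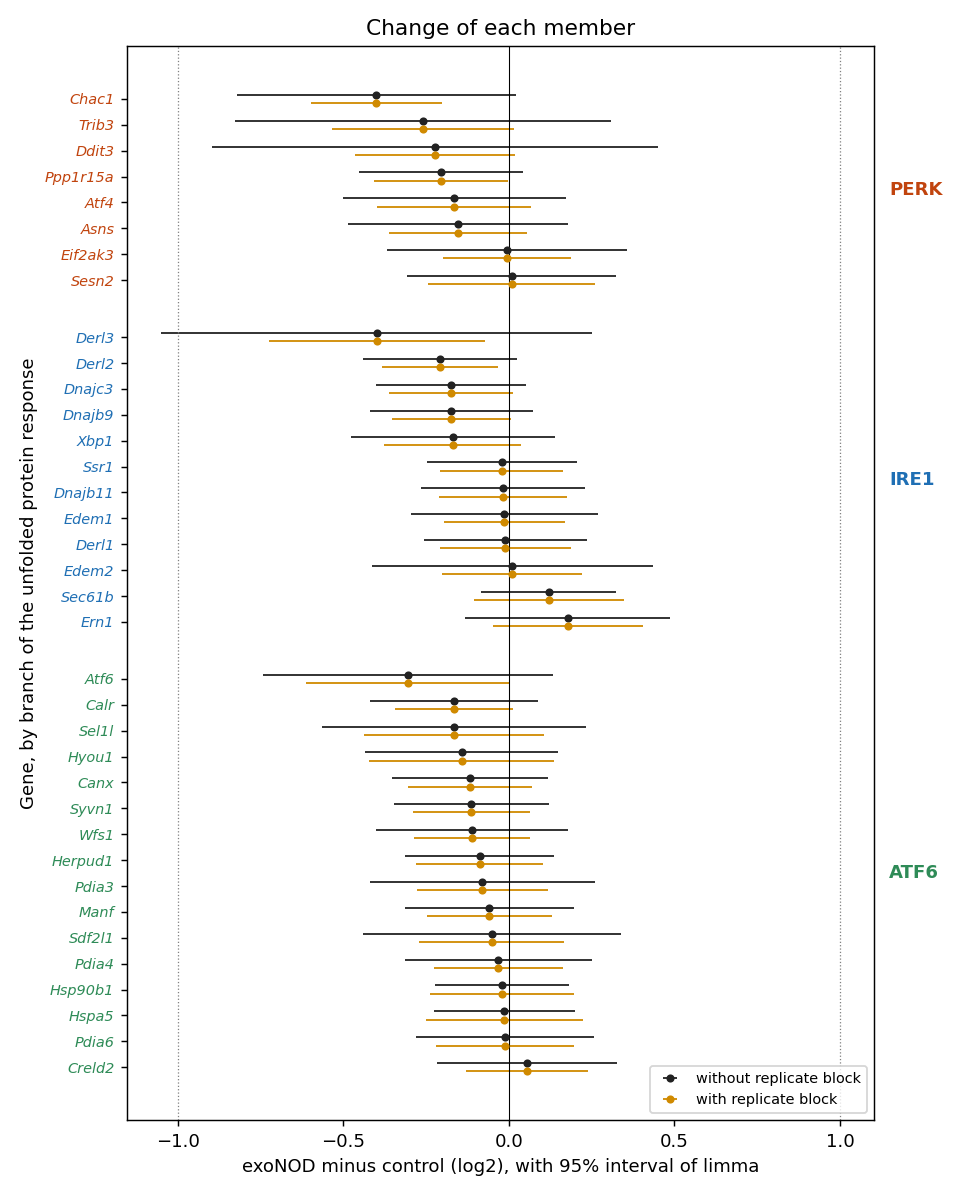
Change of each of the 36 genes, exoNOD minus control, on the log2 scale (horizontal axis), grouped by branch and ordered by change; points are the estimates of limma, bars the 95% intervals, black without and orange with the replicate block, and dotted lines mark -1 and 1. Every black interval spans 0, and among the orange ones that of Chac1 (-0.60 to -0.20) lies farthest from it.

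Most of the small differences pointed down. The change was below 0 for 31 of 36 members, with a median of -0.10, while 44.6% of all tested genes were below 0, with a median of 0.035. The count of members below 0 was 28 after quantile normalization and 35 after scaling by the array median, and it was 16 when exoNOD 1 was set against the controls of its own slide, where the members' median was 0.010. It was 20 when exoNOD 3 was left out, with a median of -0.095. By replicate number, the members' median difference was -0.035, -0.10 and -0.11, with 22, 29 and 29 of the 36 genes lower. Control 1 and exoNOD 1 were both on the first slide, so the first of these differences also lay within 1 slide. A gene was lower in all 3 pairs for 19 members, against 22.1% of all genes, and higher in all 3 for 2 members, Ern1 and Sec61b, against 29.0% of all genes. These counts describe the list, with no test, since the genes were chosen with earlier results known.

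The PERK branch held the member with the lowest limma p-value. Its 8 genes had a median change of -0.18, 7 of them below 0. By replicate number the branch median was -0.049, -0.39 and -0.031, and the drop below -0.05 was in pair 2 alone. The branch median was -0.089 without exoNOD 2, -0.33 with median scaling and -0.37 with normexp background correction. On the shared slide it was 0.023, with 3 of 8 genes below 0.

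Chac1 encodes a glutathione-degrading enzyme that ATF4 and CHOP induce under ER stress or amino acid lack. Its level was 4.49, 4.12 and 4.08 on control arrays 1 to 3 and 4.23, 3.69 and 3.56 on exoNOD arrays 1 to 3. The groups overlapped, since exoNOD 1 lay above controls 2 and 3, but in each pair the exoNOD array was the lower, with differences of -0.26, -0.43 and -0.52. The change was -0.40 ± 0.19 (SE), or 1.32-fold lower, with a limma adjusted p of 0.315 without the block and 0.0246 with it (SE 0.089). The blocked call was lost without pair 2 (limma adjusted p = 0.0961) and without pair 3 (limma adjusted p = 0.201); over 22 alternatives the limma adjusted p of Chac1 ran from 0.00588 (block, without pair 1) to 1.00 (slide as a block). On its own slide, exoNOD 1 differed from the mean of the 3 controls by 0.0041.

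Markers of several cell types differed beside Chac1. Of 10 beta cell markers, 9 were lower under exoNOD, with a median change of -0.34. In limma 6 passed lower with the block, where 1.83% of all genes did, and none without it. Their summed signal, as a multiple of the 75th percentile, was 1107 to 1175 on control and 1074 to 1095 on exoNOD arrays, and on the shared slide 7 of 10 were lower with a median of -0.14. Summed signals of 2 other types were also lower without overlap, those of alpha cells (397 to 404 against 424 to 442 in controls, 4 of 5 markers lower) and of macrophages (18.4 to 19.9 against 23.8 to 26.8, 5 of 6 lower). The macrophage markers were not uniform: the 1 that was higher rose by 2.20 and passed with the block, while 2 passed lower. The 3 delta cell markers were all lower, with overlapping sums (96.4 to 121 against 108 to 139). Sums were higher without overlap for duct cells (7.03 to 9.31 against 4.53 to 6.73, 3 of 5 markers higher) and endothelial cells (8.62 to 9.25 against 7.15 to 8.30, 3 of 6 higher). The same held for the dim markers of B lymphocytes and plasma cells (0.58 to 0.63 against 0.37 to 0.42, 7 of 7 higher). Sums overlapped for acinar cells, fibroblasts and T lymphocytes. In bulk RNA, fewer cells of a type and less RNA per cell cannot be told apart, and the part of cell content in the Chac1 result was not tested.

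Ddit3, which encodes CHOP, the pro-apoptotic factor of the branch, measured -0.19, 0.95 and 0.00 in controls and -0.33, 0.42 and -0.01 under exoNOD, with both arrays of pair 2 the highest of their group. Its change of -0.22 ± 0.30 had a limma adjusted p of 0.722. By pair it differed by -0.14, -0.52 and -0.0096. The change became 0.12 when control 2 was left out and exoNOD 2, of the same number, was kept. Trib3, a pseudokinase induced by ATF4 and CHOP, differed by -0.26 (limma adjusted p = 0.614), and by -0.061, -0.68 and -0.031 in the pairs. The groups overlapped for both genes.

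Ppp1r15a encodes GADD34, the phosphatase subunit that restores translation by dephosphorylating eIF2alpha. Its level was 2.08, 2.23 and 2.15 in controls against 1.90, 1.82 and 2.12 under exoNOD, a change of -0.20 ± 0.11 (limma adjusted p = 0.372). The groups overlapped through exoNOD 3 alone.

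Atf4, the transcription factor at the head of the programme, measured 5.64, 5.44 and 5.40 in controls and 5.62, 5.05 and 5.31 under exoNOD. The change was -0.17 ± 0.15 (limma adjusted p = 0.586), with exoNOD 2 the lowest array. Asns, asparagine synthetase and a classical ATF4 target, measured 5.39, 5.04 and 5.28 against 5.35, 4.85 and 5.05, a change of -0.15 ± 0.15 (limma adjusted p = 0.610). Here too exoNOD 2 was lowest, and control 2 was the lowest control. The remaining members of the branch were close to 0: Eif2ak3, which encodes PERK itself, differed by -0.0051 ± 0.16 (1.84, 1.66 and 1.95 against 1.86, 1.48 and 2.09) and Sesn2, a stress-induced regulator of nutrient signalling, by 0.0087.

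**Figure D2:**
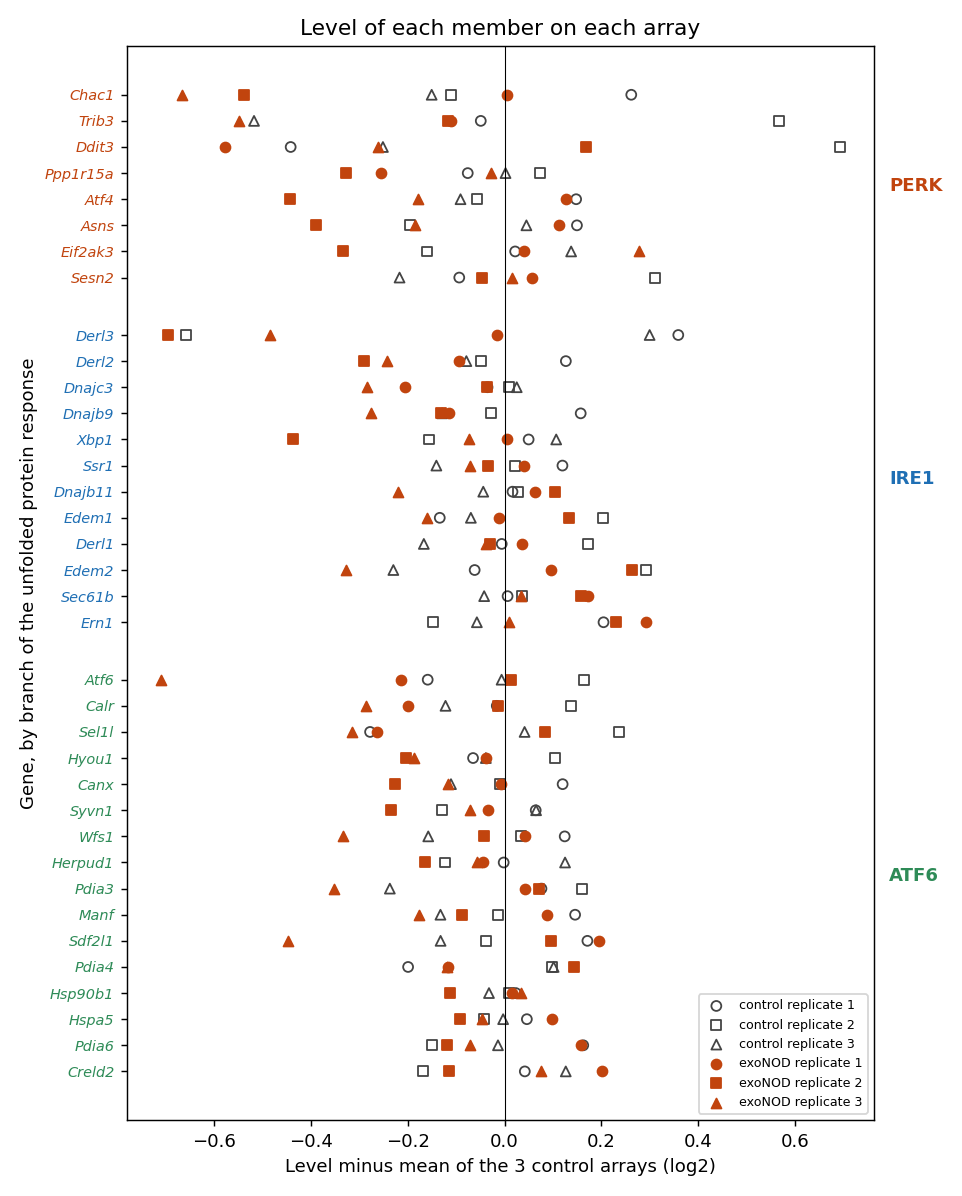
Level of each of the 36 genes on each of the 6 arrays, relative to the mean of the 3 control arrays (horizontal axis, log2), by branch; open symbols are controls, filled symbols exoNOD, and circle, square and triangle are replicate numbers 1, 2 and 3. Derl2 and Dnajc3 are the 2 genes whose filled symbols all lie left of the open ones, and Ddit3 and Trib3 have the widest range among controls, through control 2.

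Some proximal promoters of this branch hold the element that ATF4 binds together with C/EBP factors. It was searched as TGATGNAAN on both strands from 250 bases before to 50 bases after the annotated start. Windows were read from RefSeq (GRCm38.p6), which matched 32 of the 36 members; Atf6, Derl1, Hyou1 and Manf were not matched. The composite element occurred in 3 of 8 PERK members, in 1 of 13 matched ATF6 members (Herpud1), in 0 of 11 matched IRE1 members and in 4.5% of 27025 genes. The 3 occurrences are shown because Chac1 is the member that passed with the block and Trib3 and Asns share its element. They are printed in the direction of the motif with 8 bases on each side, and capitals mark the fixed letters.
Chac1 (chr2:119351040-119351064, - strand): ggcaggagTGATGcAAcggcaggga
Trib3 (chr2:152344031-152344055, + strand): cgcccggcTGATGtAAacctgagct
Asns (chr6:7693216-7693240, - strand): cagccacaTGATGaAActtcccgca
In Chac1 the element lay 194 to 186 bases before the start, in Asns 23 to 15 bases before it, and in Trib3 14 to 22 bases after it. A match describes the letters of the window and is not evidence of binding.

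The whole Chac1 window (chr2:119350992-119351291, + strand) is given for context, with the element, here on the opposite strand, in capitals.
Chac1 window: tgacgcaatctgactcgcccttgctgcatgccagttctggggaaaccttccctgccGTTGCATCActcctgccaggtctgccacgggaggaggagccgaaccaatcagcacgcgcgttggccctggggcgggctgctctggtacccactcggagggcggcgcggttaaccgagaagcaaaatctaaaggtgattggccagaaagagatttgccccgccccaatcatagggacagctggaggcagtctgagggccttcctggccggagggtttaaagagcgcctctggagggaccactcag
Of the 3 genes with the element in this branch, all were below 0 (-0.40, -0.26 and -0.15), as were 4 of the other 5 PERK members (Atf4, Ddit3, Ppp1r15a and Eif2ak3).

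The IRE1 branch was the closest to 0 in its median (-0.02), with 9 of 12 genes below 0. Its branch medians by replicate number were -0.0014, -0.051 and -0.12. With 1 array left out its median ran from -0.099 (without control 3) to 0.0032 (without exoNOD 3), and on the shared slide it was 0.021 with 5 of 12 below 0.

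Derl2, a derlin of the channel through which misfolded proteins leave the ER, measured 3.18, 3.00 and 2.97 in controls and 2.96, 2.76 and 2.81 under exoNOD. All exoNOD arrays were below all control arrays, by a narrow margin between exoNOD 1 and control 3, and the change was -0.21 ± 0.10 (limma adjusted p = 0.335). Its 2 further probes were also lower, with changes of -0.25 and -0.13. Dnajc3, the co-chaperone P58IPK that also restrains PERK, measured 1.93, 1.97 and 1.99 against 1.76, 1.93 and 1.68. These groups were separate too, with controls 2 and 3 next to each other and exoNOD 2 just below control 1, and the change was -0.18 ± 0.10 (limma adjusted p = 0.399).

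Dnajb9, an ER co-chaperone that is a standard target of spliced XBP1, measured 2.42, 2.24 and 2.14 in controls and 2.15, 2.13 and 1.99 under exoNOD. The change was -0.17 ± 0.11 (limma adjusted p = 0.438), and exoNOD 1 overlapped control 3. A further Dnajb9 probe differed by -0.03, higher in pairs 1 and 2 and lower in pair 3. Derl3, the derlin induced in secretory cells, was the most variable member of the branch, at -1.39, -2.41 and -1.45 in controls and -1.77, -2.45 and -2.24 under exoNOD. Control 2 lay within the exoNOD values, and the change of -0.40 ± 0.29 had a limma adjusted p of 0.494.

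The sensor and the mRNA that it splices lay on opposite sides of 0, neither past the test. Ern1, which encodes IRE1, measured -0.59, -0.94 and -0.85 in controls and -0.50, -0.57 and -0.79 under exoNOD, a change of 0.18 ± 0.14 (limma adjusted p = 0.521). Xbp1 measured 5.01, 4.80 and 5.06 against 4.96, 4.52 and 4.88, a change of -0.17 ± 0.14 (limma adjusted p = 0.539). The groups overlapped for both. One expression probe stands for Xbp1 here, and spliced and unspliced mRNA were not separated. Sec61b, a subunit of the translocation channel, differed by 0.12 (limma adjusted p = 0.505). Ssr1, of the translocon-associated complex, Dnajb11, a co-chaperone of BiP, the mannosidase-like degradation factors Edem1 and Edem2, and Derl1 lay between -0.02 and 0.01. A further Derl1 probe differed by -0.16 and was lower in each pair, and the further probes of Ssr1 differed by 0.04 and 0.06.

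The ATF6 branch, with most of the chaperones, had 15 of 16 genes below 0 and a median of -0.084; none passed in limma, with or without the block. Its medians by replicate number were -0.02, -0.083 and -0.14. The branch median was -0.024 without exoNOD 3, -0.053 without control 1 and -0.14 without exoNOD 1, and 0.0045 on the shared slide, with 8 of 16 below 0.

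Hspa5 encodes BiP, the main ER chaperone and the usual readout of ER stress. Its level was 6.72, 6.63 and 6.67 in controls and 6.77, 6.58 and 6.63 under exoNOD. The change was -0.01 ± 0.09 (limma adjusted p = 0.951) with a 95% interval of -0.23 to 0.20. Hsp90b1, the ER form of HSP90, differed by -0.02. The sensor Atf6 measured -1.66, -1.34 and -1.51 in controls and -1.72, -1.49 and -2.21 under exoNOD, a change of -0.30 ± 0.19 (limma adjusted p = 0.445). That difference rested on exoNOD 3, and it was 0.14 after normexp background correction.

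The lectin chaperones were slightly lower. Calr, calreticulin, measured 3.66, 3.81 and 3.55 in controls and 3.48, 3.66 and 3.39 under exoNOD, lower in each pair and overlapping between groups, with a change of -0.17 ± 0.11 (limma adjusted p = 0.467). Canx, calnexin, measured 3.54, 3.41 and 3.31 against 3.41, 3.19 and 3.30, a change of -0.12 ± 0.10 (limma adjusted p = 0.584), and exoNOD 1 lay just above control 2. Hyou1, a large chaperone that exchanges the nucleotide of BiP, measured -2.35, -2.18 and -2.32 against -2.32, -2.49 and -2.47. Its change of -0.14 ± 0.13 (limma adjusted p = 0.586) was not in 1 direction across pairs, and it was 0.41 after normexp background correction.

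The other members of the branch differed by -0.17 to 0.05. The disulfide isomerases Pdia3, Pdia4 and Pdia6 differed by -0.08, -0.03 and -0.01. Sel1l and Syvn1, the scaffold and ubiquitin ligase of ER-associated degradation, differed by -0.17 and -0.11, and Herpud1, which assembles that complex, by -0.09. Wfs1, an ER membrane protein whose loss causes diabetes, differed by -0.11. The secreted or luminal stress proteins Manf, Sdf2l1 and Creld2 differed by -0.06, -0.05 and 0.05. None of these 10 had a limma adjusted p below 0.592.

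Some promoters of this branch carry the ER stress element, which ATF6 binds with the general factor NF-Y. It was searched on both strands as CCAAT followed by CCACG with 9 bases between. The element was found in 9 of 32 matched members: 7 of 13 in the ATF6 branch (Hspa5, Hsp90b1, Syvn1, Pdia6, Calr, Canx and Creld2), 2 of 11 in the IRE1 branch (Dnajc3 and Derl3) and 0 of 8 in the PERK branch. Over all 27025 genes it was found in 37, or 0.137%, the 9 members included. Its first base lay between 44 and 212 bases before the start. Elements of 4 members are shown, that of Hspa5 as the common readout of ER stress and those of Calr, Dnajc3 and Derl3 as the carriers with the lowest changes, followed by that of Ero1b, a gene outside the list described further on. They are printed in the direction of the motif with 8 bases on each side, and capitals mark the fixed letters.
Hspa5 (chr2:34772017-34772051, + strand): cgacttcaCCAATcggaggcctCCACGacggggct
Calr (chr8:84847067-84847101, + strand): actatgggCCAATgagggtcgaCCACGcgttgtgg
Dnajc3 (chr14:118937819-118937853, + strand): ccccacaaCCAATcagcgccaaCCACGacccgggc
Derl3 (chr10:75893234-75893268, - strand): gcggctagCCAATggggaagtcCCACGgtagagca
Ero1b (chr13:12565674-12565708, - strand): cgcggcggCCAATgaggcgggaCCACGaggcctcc
The 9 carriers among the members had a median change of -0.11, with 8 below 0, and 0 passed in limma with or without the block; on the shared slide their median was -0.0070, with 5 below 0. The 12 carriers outside the list that were tested had a median of 0.016, with 4 below 0, and 1 of them, Ero1b, passed lower with the block. On the shared slide the median of these 12 was 0.0096, with 6 below 0. Most of the 12 were dimmer than the 75th percentile and most of the 9 brighter. Changes differed with brightness, as described below, so these medians cannot be compared directly.

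The whole Hspa5 window (chr2:34771840-34772139, + strand) holds the ER stress element and also the UPR element TGACGTGN, both in capitals.
Hspa5 window: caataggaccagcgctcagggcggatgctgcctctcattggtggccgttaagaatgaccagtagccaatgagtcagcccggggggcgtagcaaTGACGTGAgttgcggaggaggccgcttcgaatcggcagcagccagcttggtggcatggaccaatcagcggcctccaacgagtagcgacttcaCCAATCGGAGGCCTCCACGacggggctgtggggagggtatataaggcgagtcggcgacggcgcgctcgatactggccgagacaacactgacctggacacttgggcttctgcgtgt
Hspa5 was the only matched member with the UPR element, which 2.22% of all genes hold. The second form of the ER stress element, ATTGG followed by CCACG with 1 base between, occurred in Dnajb11 and Herpud1 and in 0.0444% of all genes. The letters CCACG alone occurred in 25 of 32 members and 35.5% of all genes, and CCAAT alone in 24 of 32 members, all 13 matched ATF6 members among them, and 41.1% of all genes. These counts include the copies inside the longer elements.

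**Figure D3:**
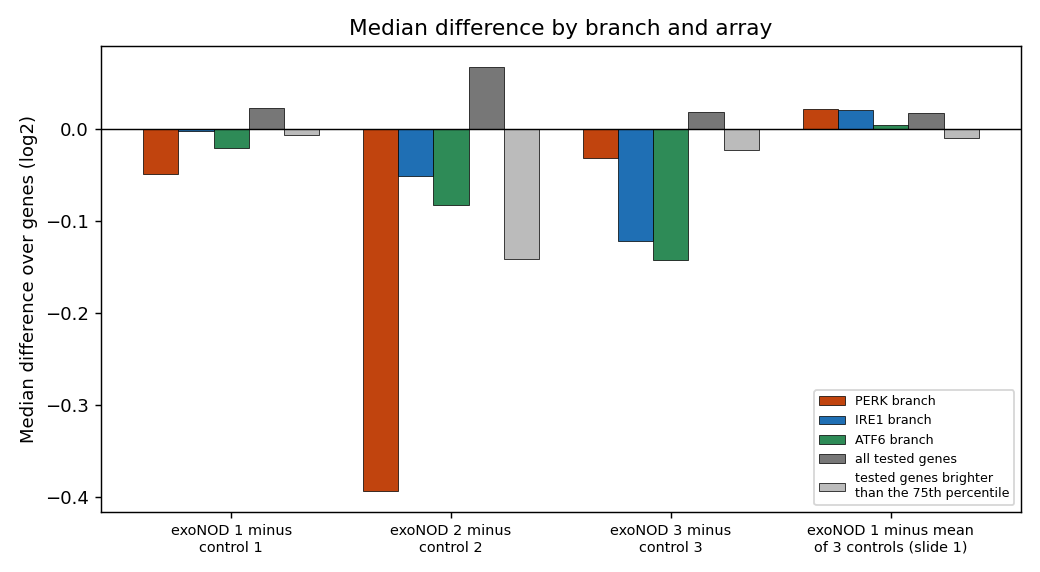
Median log2 difference over the genes of each branch (coloured bars), over all tested genes (dark grey) and over tested genes brighter than the 75th percentile (light grey), for each pair of equal replicate number and for exoNOD 1 against the 3 controls of its slide; bars start at 0 and carry no error bars. The PERK bar is deepest in pair 2 (-0.39), and on the shared slide the 3 branch medians lie between 0.0045 and 0.023.

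Most members had bright probes, and changes differed with brightness on these arrays: among the 17035 tested genes not brighter than the 75th percentile, 34.8% were below 0 with a median of 0.13, and among the 8755 brighter ones 63.7% were below 0 with a median of -0.054. Of the 36 members, 30 were in the brighter class, where 27 were below 0 with a median of -0.084. The 6 dimmer members (Ern1, Edem2, Derl3, Atf6, Sel1l and Hyou1) had 4 below 0 and a median of -0.15. In the brighter class, 17 of 30 members and 34.2% of all genes were lower in all 3 pairs. On the shared slide the median of the brighter members was 0.026, with 12 of 30 below 0, and that of all brighter genes -0.0100. This division was added after the data had been seen.

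**Figure D4:**
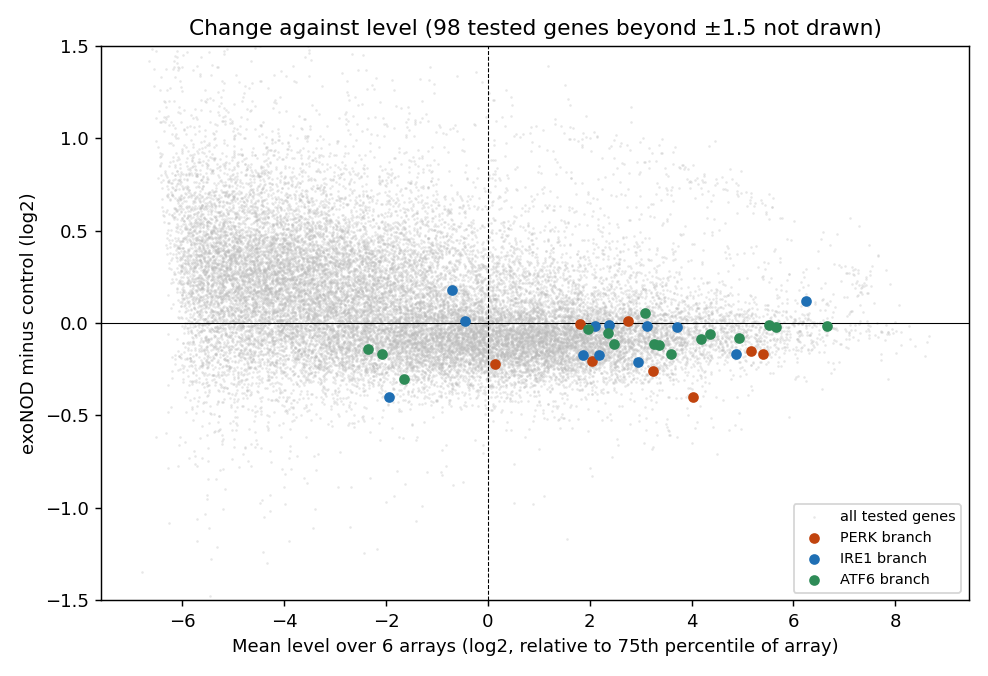
Change, exoNOD minus control (vertical axis, log2), against the mean level over the 6 arrays (horizontal axis, log2, 0 at the 75th percentile of the array, dashed line); grey points are all tested genes, coloured points the 36 members by branch, and 98 genes beyond 1.5 in either direction are not drawn. Of the members, 30 lie right of the dashed line, where the grey points centre below 0 (median -0.054).

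The range of the 3 number means exceeded the absolute change between groups for 31 of 36 members, against 65.8% of all genes. Among tested genes brighter than the 75th percentile it did so for 72.5%. The range covers more means, each of fewer arrays, than the change does, so it tends to be larger without any effect. The count therefore cannot rank replicate number against treatment. The median range was 0.27 for members and 0.27 for all genes. A limma F test of the replicate number, added after the data had been seen, passed for 5 of 36 members at an adjusted p of 0.05, where 6.69% of all genes passed. Its unadjusted p was below 0.05 for 15 of 36 members and for 5701 of the 25790 tested genes.

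The 5 were 3 genes of the ATF4 and CHOP arm and 2 of ER-associated degradation. Ddit3 had the widest range, 0.94 on the log2 scale or 1.92-fold, with pair 2 highest (limma F test, adjusted p = 0.0072). Derl3 ranged over 0.85, with pair 2 lowest (limma F test, adjusted p = 0.0418). Trib3 ranged over 0.76, highest in pair 2 and lowest in pair 3 (limma F test, adjusted p = 0.0361). Edem2 ranged over 0.56, again highest in pair 2 and lowest in pair 3 (limma F test, adjusted p = 0.0432), and Chac1 over 0.54, highest in pair 1 (limma F test, adjusted p = 0.0281). The number stands for a separate experiment, and the sources used here do not say which preparations shared one.

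**Figure D5:**
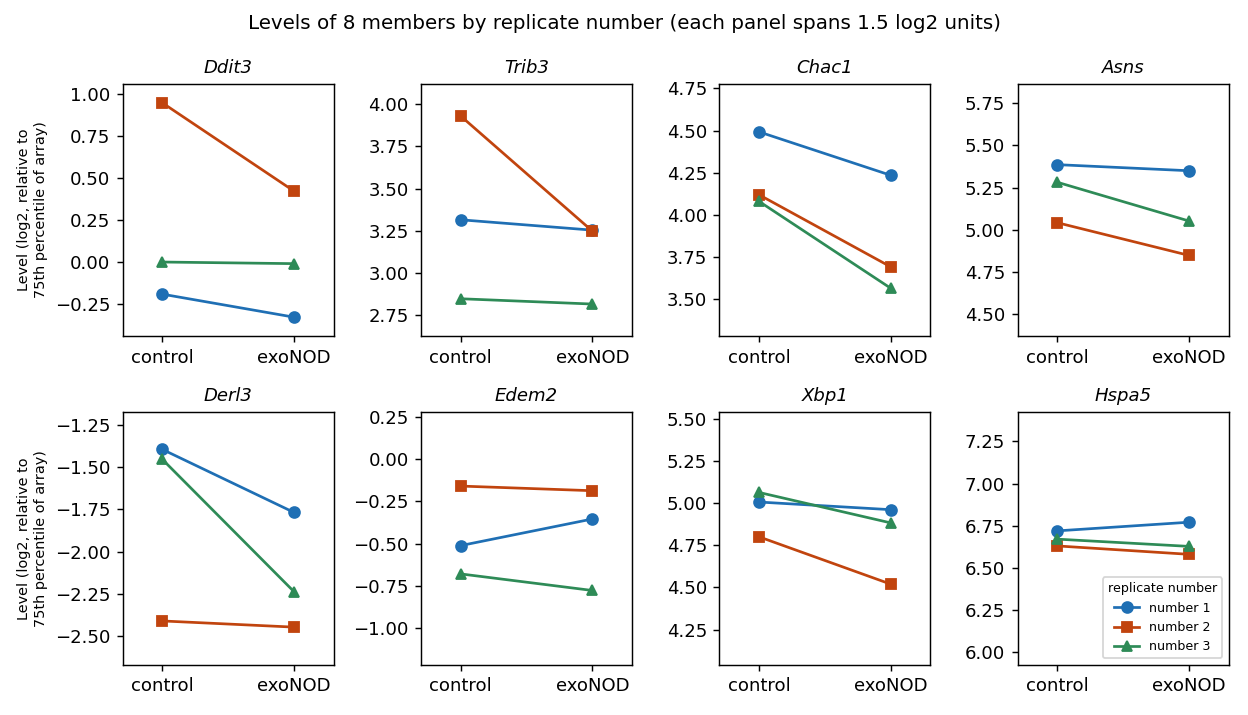
Levels (vertical axes, log2, relative to the 75th percentile of the array; each panel spans 1.5 units) of 8 members in control and exoNOD, with lines joining arrays of equal replicate number. Ddit3, Trib3, Derl3 and Edem2 differ widely by number, Chac1 is lower along all 3 lines, and Hspa5 is close to level (-0.01).

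Around these members, 134 further genes of the same pathways were tested out of 136 listed. In limma 0 of 134 passed, and 9 had an unadjusted p below 0.05, against 4294 of the 25790 tested genes. With the block 2 passed lower and 5 higher, or no larger a share than the 1.83% and 6.89% of all genes. The genes called are therefore given as single values and not as a result about the pathways. Changes were below 0 for 86 and above 0 for 48, with a median of -0.05. The amino acid response genes downstream of ATF4 were mostly lower, 20 of 26 below 0 with a median of -0.12, while the folding genes were even, 14 below and 14 above 0. Of the degradation genes 16 of 22 were below 0 (median -0.062), of the translocation genes 20 of 28 (median -0.043), of the transducers and eIF2 regulators 10 of 18 (median -0.045) and of the cell death genes 6 of 13 (median 0.088). On the shared slide, with exoNOD 1 alone against the 3 controls, the direction of most of these medians turned. There 55 of the 134 genes were below 0 (median 0.040), with 11 of 26 amino acid response genes (0.031), 10 of 22 degradation genes (0.023), 8 of 28 translocation genes (0.067) and 7 of 28 folding genes (0.087). The transducers had 12 of 18 below 0 (-0.034) and the cell death genes 7 of 13 (-0.0097). Pair 1, exoNOD 1 against control 1 alone, lay within the same slide, and there 69 of the 134 were below 0 (median -0.0066). Its medians were -0.055 for amino acid response, -0.022 for degradation, 0.019 for translocation and 0.028 for folding genes. For the transducers the pair 1 median was 0.0022, and for the cell death genes -0.0097.

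The folding list held 3 genes that passed with the block. Pdia5, a disulfide isomerase, measured 1.27, 1.93 and 1.37 in controls and 1.89, 2.44 and 1.85 under exoNOD, higher in each pair by a similar step. Its change was 0.54, with a limma adjusted p of 0.265 without and 0.00379 with the block. Ero1b, the oxidase that renews disulfide isomerases in beta cells and holds the ER stress element printed above, measured 5.01, 4.87 and 4.06 against 4.41, 4.65 and 3.33. Its change was -0.51, with a limma adjusted p of 0.475 without and 0.0198 with the block, and as for Chac1 the part of the cell type markers was not tested. Fkbp11, a prolyl isomerase of secretory cells, was higher on all exoNOD arrays (1.94 to 2.12) than on any control (1.45 to 1.87), a change of 0.36 with a limma adjusted p of 0.244 without and 0.0469 with the block. Of 7 markers of B lymphocytes and plasma cells tested, 7 were also higher, with a summed signal of 0.58 to 0.63 against 0.37 to 0.42 times the 75th percentile. These markers were dim, even their sum lying below that percentile. Their median change was 0.62, and that of all tested genes not brighter than the percentile was 0.13. The part of these markers was not tested.

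The cell death list held 3 more. Casp4, the inflammatory caspase-11 of mice, measured -1.76, -1.83 and -1.15 in controls and -1.06, -1.17 and -0.03 under exoNOD (limma adjusted p = 0.255 without and 0.00306 with the block). Tnfrsf10b, the TRAIL receptor that CHOP induces, was -0.69 to -0.54 in controls and -0.46 to 0.20 under exoNOD, without overlap (limma adjusted p = 0.223 without and 0.0382 with the block). Bbc3, which encodes the pro-apoptotic PUMA, differed by -0.32 (limma adjusted p = 0.353 without and 0.0451 with the block). These 3 differed in direction, and Ddit3 itself did not pass in either fit.

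Among the amino acid response genes Atf3, a stress-induced transcription factor, was the 1 that passed with the block. It measured -1.12, -0.85 and -0.65 in controls and -0.76, -0.24 and -0.40 under exoNOD, a change of 0.41 with a limma adjusted p of 0.289 without and 0.039 with the block. In the lists where none passed, the lowest p-values belonged to Creb3l1 (-0.17, limma adjusted p = 0.394) and Mbtps1 (-0.21, 0.395) among the transducers, to the lectin Os9 (-0.23, 0.307) and the mannosidase Man1b1 (-0.23, 0.317) in degradation, and to Sec11c (0.22, 0.347) and Srp54a (-0.14, 0.475) in translocation.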

How the data were processed

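Per the submitters' processing notes, arrays were read with Agilent Feature Extraction (11.0.1.1). Each deposited file gives, for 43020 spots, a background-subtracted processed intensity, not normalized between arrays, and spot flags for well above background and saturation, other values of 0 or 1 per the file headers. The authors' processed values, on the log2 scale with a median of 7.92 on every array, differed, apart from a constant per array, little from quantile-normalized processed intensities (median absolute difference of at most 0.000365) and served as an alternative.

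Processed intensity was taken as log2, scaled to the 75th percentile of each array, and kept for the 31065 of 39429 probes well above background on all arrays of a group. Symbols came from RefSeq accessions (27234 probes), giving 25790 genes, 17258 with a symbol. Groups were compared with limma 3.58.1 (eBayes with a trend) in R 4.3.3 with data.table (version 1.17.8), tested on simulated data. Members and lists were chosen with earlier results of these data known. Full values go to the sensors and factors, to members past the threshold in either fit and to the 4 lowest p-values of each branch; the other lists give their calls, or their 2 lowest p-values. Normexp used the median spot signal with an offset of 50.

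Labels number the arrays 1 to 3 in each group without saying that equal numbers share a preparation. Deviations from the group means correlated between equal numbers (r = 0.366, 0.281 and 0.480 across genes, which are not independent) and less between unequal ones (-0.341 to 0.0087), so the numbers were taken as pairs and the blocked result is given where it differs. Deviations cancel within a group, so higher values between equal numbers bring lower ones between unequal numbers. The pairing was thus read from the same data that the blocked tests use. The number of arrays limits the precision. Alternatives were other normalizations, backgrounds, filters, probe rules, weights, slide terms and left-out arrays. The F test of the number, the brightness classes and the set of all genes with the ER stress element were added after the data had been seen.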

Additional observations from a re-analysis of the deposited data

How the results depend on the processing

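With 3 arrays a group, and both groups on only 1 of 2 slides, the counts of genes called depended on the model. In place of 27 genes called (1 lower, 26 higher), limma called 2249 with the replicate block (472 lower, 1777 higher), 1256 with quantile normalization and the block (391 lower, 865 higher), 317 with array weights, 172 with normexp (42 lower, 130 higher), 39 with quantile normalization (17 lower, 22 higher), 13 with median scaling, and 0 without the filter on dim probes, without the trend, with the slide as a block or on slide 1 alone, where 4638, 4358, 932 and 1143 genes had an unadjusted p below 0.05. Leaving out 1 array gave 0 (each of controls 1 and 2 and exoNOD 2) to 1272 (exoNOD 1), and leaving out a pair with the block 454 (pair 2), 1739 (pair 3) and 4171 (pair 1). Members called were 1 (Chac1) with the block, alone or with quantile normalization, 0 to 3 with a pair left out (3 without pair 1) and 0 in the other alternatives, where 0 to 7 members had an unadjusted p below 0.05 in limma. Other pathway genes called were 7 with the block, 4 with quantile normalization and the block, 0 to 1 with an array left out (1 without exoNOD 1) and 3, 5 and 14 with pair 2, 3 or 1 left out. On all 6 arrays the block changed no other call among the named members. Without pair 1, Atf6 also passed lower with the block (-0.43, limma adjusted p = 0.0464).

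The median of all genes, 0.035 as reported, was -0.11 with median scaling and 0.34 with normexp. The members' median was -0.24 with either, -0.13 and -0.57 relative to all genes, and 0.010 on slide 1 or with the slide as a block. The IRE1 median was -0.16 with median scaling, -0.20 with normexp, -0.10 with array weights and -0.099 to 0.0032 with an array left out. The ATF6 median was -0.22 with median scaling, -0.24 with normexp, 0.0045 with either slide alternative and -0.14 to -0.024 with an array left out. The PERK median was 0.023 with either slide alternative, -0.33 with median scaling, -0.37 with normexp, -0.23 to -0.089 with an array left out and -0.064 with the block and without pair 2. Members below 0 numbered 20 to 33 with an array left out. Of 374 values of 17 members given in full under 22 alternatives, 345 kept their direction. Those that did not, all without a call, were Eif2ak3 with quantile normalization (0.018, also with the block and in the authors' values) and array weights (0.11); Atf6 (0.14), Derl3 (0.074) and Hyou1 (0.41) with normexp; and, on slide 1 or with the slide as a block, Hspa5 (0.098), Atf4 (0.13), Xbp1 (0.0044), Eif2ak3 (0.041), Chac1 (0.0041) and Asns (0.11). With an array left out, Hspa5 ran from -0.069 to 0.026, Eif2ak3 from -0.15 to 0.16 and Ddit3 from -0.44 to 0.12 (without control 2); with a pair left out, Hspa5 was 0.0042 (pair 2) and 0.00078 (pair 3) and Eif2ak3 0.079 (pair 2). The cause was not tested.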

Other observations

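Among the beta cell markers that passed lower with the replicate block were transporters, transcription factors and the peptide Ucn3, and none of the insulin genes. Slc2a2, the glucose transporter of mouse beta cells, measured 3.11, 2.85 and 1.41 in controls and 2.21, 2.03 and 0.65 under exoNOD, lower in each pair and with a wide gap between pair 3 and the others. Ucn3, a peptide marker of mature beta cells, measured 2.89, 3.17 and 2.32 against 2.34, 2.44 and 1.42. In limma with the block, where 1.83% of all genes passed lower, Slc2a2, Ucn3, Slc30a8, Nkx6-1, Mafa and Pdx1 did so. Ins1, Ins2, Iapp and G6pc2 did not pass. Without the block none of the 10 passed (limma adjusted p of 0.248 or more).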
